A study of Mus musculus with 20 samples.

Results

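The liver turns cholesterol into bile acids, joins them to taurine or glycine and pumps them into bile, and most of them return from the intestine to be taken up again. The classic pathway of synthesis starts with Cyp7a1, an alternative pathway runs through Cyp27a1, and Cyp8b1 directs the product towards cholic acid. Bile acids restrain their own synthesis through the receptor FXR and the repressor SHP. Taurine is itself made from cysteine, and bile acids are activated with coenzyme A before they are conjugated.

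The genes described here are the 9 that carry these steps in the liver, chosen by name out of 46078 genes counted: the synthesis enzymes Cyp7a1, Cyp8b1 and Cyp27a1, the conjugation enzymes Slc27a5 and Baat, the receptor Nr1h4 (FXR) and the repressor Nr0b2 (SHP), the export pump Abcb11 and the uptake carrier Slc10a1. All 9 passed the filter on low counts and were among the 14759 genes tested. Poly(A) RNA was sequenced from livers of 20 male mice at least 9 weeks old, with 1 mouse per library. Cse encodes cystathionine gamma-lyase, which makes cysteine from methionine, and the knockout (Cse-/-, 129/C57BL/6 background) was global, so no result is particular to loss in hepatocytes. The control mice are labelled WT and are entered as heterozygous (Cse+/-) in the study's list of mice. Of them, 2 ate the control diet, 3 a diet without tryptophan (no Trp) and 4 a diet without cysteine (no Cys). Of the Cse-/- mice, 4 ate the no-Cys diet, 3 the no-Trp diet and 4 the no-Trp diet with BSO, an inhibitor of glutathione synthesis. All mice were calorie-restricted, first on the control diet and then for 2 days on the diet of their group. The control diet was not analysed here in Cse-/- mice. Each library is 1 animal, and p-values weigh a difference between groups against how animals within groups vary.

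Counts on genes ranged from 11785740 to 57986121 per library, and every member had at least 190 counts in every library. Cse (listed as Cth) stood at 88.4 to 332 CPM (counts scaled by library size) in Cse+/- livers and at 6.37 to 14.4 CPM in Cse-/- livers, so the genotype labels held in all 20 libraries. All 7 hepatocyte markers examined were detected, and their summed level was 85029 to 112933 CPM in Cse+/- no-Cys livers and 42308 to 72116 CPM in Cse-/- no-Cys livers. That sum is mostly albumin (Alb, group medians 80600 and 27800 CPM), and between these groups 3 of the 7 were lower (Alb, Apoa1 and Serpina1a), Cps1 was higher and the other 3 did not pass. One Cse-/- no-Cys library, av08, stood at the top of that last range, with the other 3 between 42300 and 46600 CPM, and values without it are given below beside several results. In bulk tissue, fewer cells of a type and less RNA per cell cannot be told apart.

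**Figure D1:**
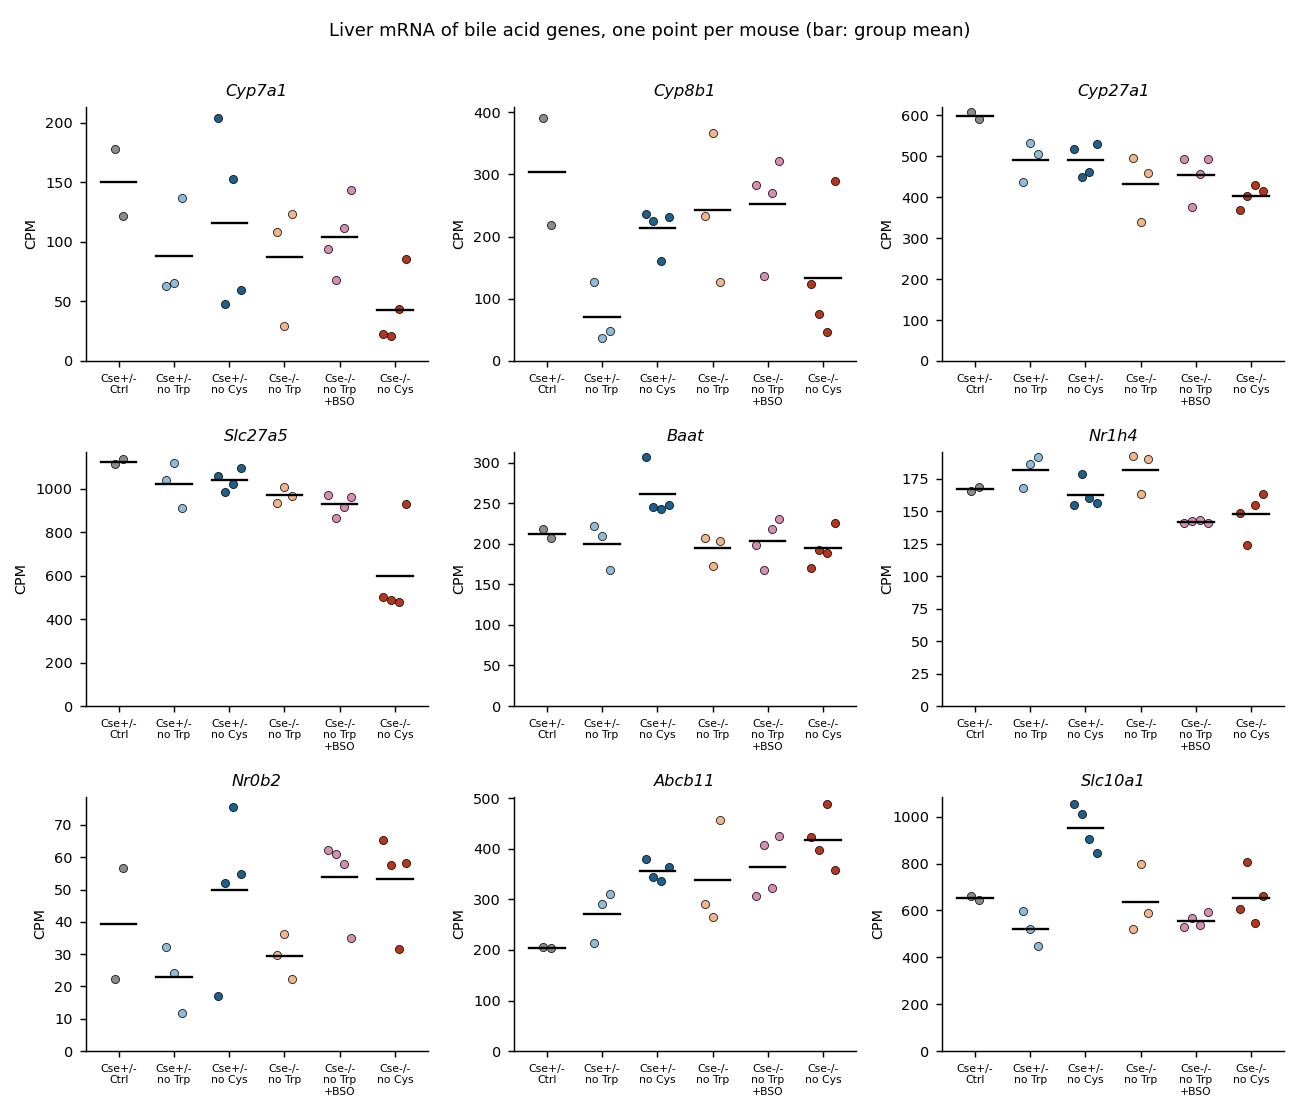
Level of each of the 9 genes in CPM (linear axis from 0) in each of the 20 livers, by genotype and diet, with a bar at the group mean. Slc27a5 sits at 479 to 502 CPM in 3 of the 4 Cse-/- no-Cys mice against 865 CPM or more in every other mouse, and Slc10a1 sits at 845 CPM or more in the Cse+/- no-Cys mice against 806 CPM or less in every other mouse.

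Per kilobase of annotated exon, averaged over the 6 group means, Slc27a5 (388 CPM per kb), Slc10a1 (301) and Cyp27a1 (221) were the most abundant of the 9 mRNAs. Baat (109), Cyp8b1 (104), Nr1h4 (71.2) and Abcb11 (63.2) followed, and Nr0b2 (36.7) and Cyp7a1 (23.6) were the least abundant. The members differed widely in how far the mice spread. Between the lowest and the highest library Cyp8b1 spanned 10.5-fold, Cyp7a1 9.85-fold and Nr0b2 6.39-fold, whereas Nr1h4 spanned 1.55-fold, Cyp27a1 1.79-fold and Baat 1.83-fold. For Cyp7a1, Cyp8b1, Nr0b2 and also Nr1h4 the range of each group overlapped that of its neighbour in the order of group means, from the highest group to the lowest.

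The first comparison asks what loss of Cse does when the diet also lacks cysteine. In Cse-/- against Cse+/- livers on the no-Cys diet, Cyp7a1, Slc27a5, Baat and Slc10a1 were lower and none of the 9 was higher. These 4 of 9 (44.4%) stand beside 23.8% of all genes tested that passed the same threshold, an adjusted p under 0.05 in edgeR, with 12.2% of genes lower and 11.6% higher. The median log2 fold change of the 9 was -0.42, against -0.01 over all genes tested.

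Slc27a5 (chr7:12988346-12998192, minus strand, GRCm38), the enzyme that activates bile acids with coenzyme A before conjugation, had the smallest adjusted p of the 9. It measured 1060, 984, 1023 and 1097 CPM in the Cse+/- mice and 502, 489, 479 and 930 CPM in the Cse-/- mice. Of the Cse-/- mice 3 lay near one level and the other, av08, lay just below the Cse+/- range. The log2 fold change was -0.80 ± 0.16 (SE; edgeR adjusted p = 0.00114), a mean 1.74-fold lower, and it passed in all 16 alternative analyses (adjusted p 9.25e-08 to 0.0169), with -1.09 without av08.

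Baat (chr4:49489422-49506557, minus strand), which joins the activated bile acid to taurine, measured 307, 246, 242 and 248 CPM in the Cse+/- mice and 170, 193, 189 and 226 CPM in the Cse-/- mice. The ranges did not overlap, and the log2 fold change was -0.42 ± 0.12 (edgeR adjusted p = 0.0144). The Cse-/- no-Cys mean of 194 CPM was close to that of Cse-/- mice on no Trp (194) and no Trp + BSO (204). It was also close to that of Cse+/- mice on no Trp (200) and the control diet (213). Only the Cse+/- no-Cys mean of 261 CPM stood apart. The call rested on single mice at both ends: it was lost without the highest Cse+/- mouse av01 (-0.34, adjusted p = 0.0511) or without the lowest Cse-/- mouse av05 (-0.35, adjusted p = 0.0609), within a range of 0.00452 to 0.0609 over the alternatives.

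Slc10a1 (NTCP, chr12:80953183-80968705, minus strand), the sodium-dependent carrier that takes bile acids up from blood, measured 1055, 1012, 904 and 845 CPM in the Cse+/- mice and 608, 806, 545 and 662 CPM in the Cse-/- mice. Every Cse-/- mouse was below every Cse+/- mouse, with a log2 fold change of -0.54 ± 0.13 (edgeR adjusted p = 0.00638, and 0.00105 to 0.0331 over 16 alternatives). The Cse-/- mean of 655 CPM was close to the 654 CPM of the Cse+/- mice on the control diet, and each Cse+/- no-Cys mouse stood above all 16 other mice.

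Cyp7a1 (chr4:6265612-6275633, minus strand), the rate-limiting enzyme of the classic pathway, measured 204, 48.2, 153 and 59.8 CPM in the Cse+/- mice and 22.6, 20.8, 43.5 and 86.0 CPM in the Cse-/- mice. The Cse+/- mice split into a high and a low pair, and the highest Cse-/- mouse, again av08, lay above the lower pair. The log2 fold change was the largest of the 9 at -1.43 but also the least precise (SE 0.51; edgeR adjusted p = 0.0466). It passed the threshold only narrowly. Without av08 it was -2 (adjusted p = 0.00864), and without av01, av03, av05, av06 or av07 it was -1.01, -1.27, -1.20, -1.20 and -1.42, with adjusted p from 0.0937 to 0.166, and with only the 2 groups in the fit the adjusted p was 0.0732, whereas without the filter on low counts it was 0.00309.

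The other 5 members did not pass the test in this comparison. Cyp8b1 (chr9:121914356-121916305, minus strand), the hydroxylase needed for cholic acid, measured 237, 225, 161 and 232 CPM in the Cse+/- mice and 124, 75.3, 47.2 and 289 CPM in the Cse-/- mice, where 3 lay below the Cse+/- range and av08 above it. Its log2 fold change was -0.67 ± 0.46 (edgeR adjusted p = 0.309) with all mice and -1.38 without av08 (adjusted p = 0.0245, in a range up to 0.605 over the alternatives). Cyp27a1 (chr1:74713574-74737892, plus strand), the mitochondrial enzyme that oxidises the sterol side chain, ranged from 368 to 430 CPM in Cse-/- and from 449 to 531 CPM in Cse+/- livers, without overlap (log2 fold change -0.28 ± 0.12, adjusted p = 0.0855). Abcb11 (BSEP, chr2:69238282-69342616, minus strand), the pump that exports bile salts into the canaliculus, whose exons overlap the antisense gene Gm13613, with which reads cannot be told apart without strand, had a log2 fold change of 0.23 (95% interval -0.10 to 0.56, adjusted p = 0.315). The 95% interval of the receptor Nr1h4 (chr10:89454234-89533585, minus strand) ran from -0.32 to 0.05, and that of the repressor Nr0b2 (chr4:133553376-133556536, plus strand) from -0.68 to 0.86.

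Some clock genes and some markers of other cell types differed in this comparison, where 23.8% of all genes passed. The bile duct (cholangiocyte) markers summed to 20.4 to 35.9 CPM in Cse-/- and 55.5 to 77.3 CPM in Cse+/- no-Cys livers. That sum is mostly Spp1 (group medians 15.8 and 41.3 CPM) and Slc10a2 (3.69 and 14.8 CPM). Sox9 and Spp1 were lower among the 6 of 7 that could be tested. Krt19 and Krt7 stayed at or below 2.07 CPM in every mouse of both groups, and Cftr was at 0 in the lowest Cse-/- mouse. Of 14 clock genes tested, 7 were lower and none higher, among them Hlf (log2 fold change -0.88), Cry1 (-0.88), Per3 (-0.70) and Dbp (-0.53). Others of the list did not follow. Nr1d1 had group medians of 76.6 CPM in Cse-/- and 78.3 CPM in Cse+/- no-Cys livers, and Arntl of 0.846 and 0.406 CPM. Among the other lists, 1 of 4 markers of sinusoidal endothelium (Lyve1), 2 of 7 of pericentral hepatocytes (Oat and Cyp1a2) and 1 of 6 of periportal hepatocytes (Hsd17b13) were higher, and 1 of 4 of stellate cells (Lrat) and 1 pericentral marker (Lgr5) were lower. No Kupffer cell marker of 5 tested and no intestinal marker of 2 tested passed. The part of any of these marker genes in the bile acid genes was not tested.

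**Figure D2:**
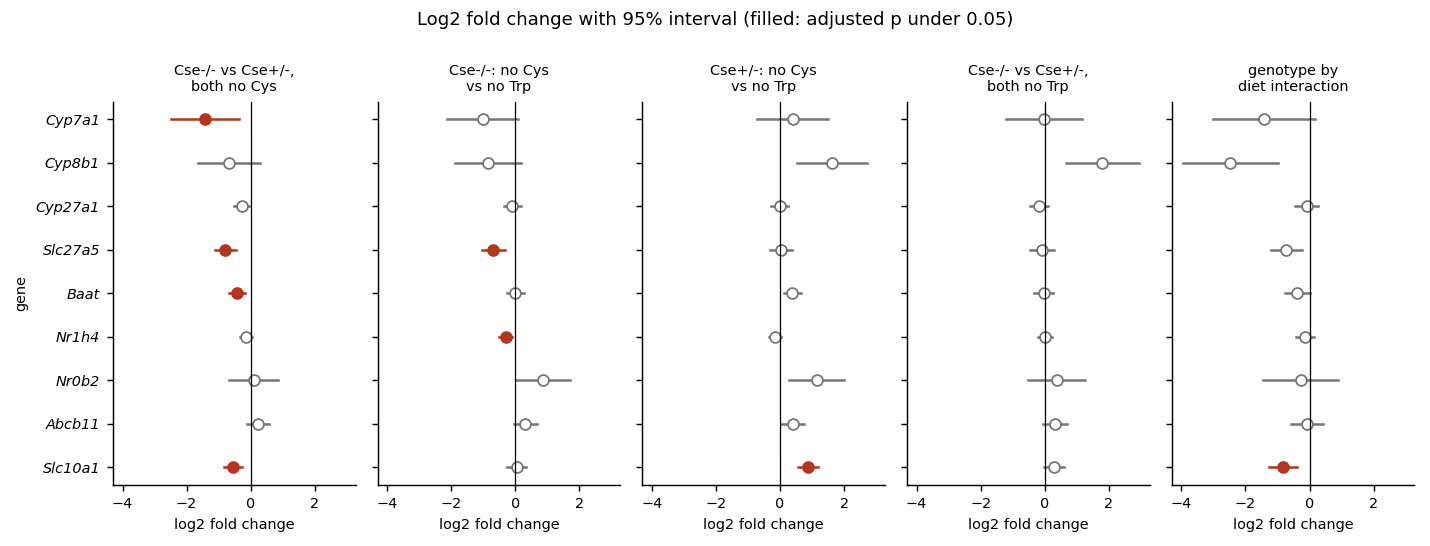
Log2 fold change (points) and 95% interval (lines) of each of the 9 genes in 5 comparisons, filled where the edgeR adjusted p was under 0.05. Slc27a5 is lower in both comparisons of Cse-/- no-Cys mice, -0.80 and -0.69, and Slc10a1 is filled only in the comparisons that hold the Cse+/- no-Cys mice.

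The second comparison asks how lack of cysteine compares with lack of an essential amino acid in the same genotype. In Cse-/- mice, Slc27a5 and Nr1h4 were lower on the no-Cys than on the no-Trp diet, 2 of 9 members (22.2%) beside 10.4% of all genes tested, 5.35% lower. Slc27a5 measured 933, 1009 and 967 CPM on the no-Trp diet, above all 4 no-Cys mice, with a log2 fold change of -0.69 ± 0.17 (edgeR adjusted p = 0.0130). The call was lost with only the 2 groups in the fit (adjusted p = 0.107), and the value was -0.98 without av08. Nr1h4, the nuclear receptor that binds bile acids, measured 192, 163 and 190 CPM on the no-Trp diet and 149, 124, 155 and 163 CPM on the no-Cys diet, with the ranges just apart at 163.4 and 163.3 CPM. Its log2 fold change of -0.30 ± 0.09 (adjusted p = 0.0468) lost the threshold without av05, av06, av07, av14 or av16 (-0.23 to -0.32, adjusted p 0.0725 to 0.167), without the filter on low counts (0.116), and with only the 2 groups in the fit (0.159). Cyp8b1 passed only without av08 (-1.56, adjusted p = 0.0281), against -0.86 ± 0.49 with all mice, and Abcb11 only without av16 (0.58, adjusted p = 0.0387), against 0.31 ± 0.17. Baat (95% interval -0.27 to 0.27) and Slc10a1 (-0.26 to 0.34) had the values nearest 0. Between these groups 1 of 14 clock genes was higher and 4 lower, 2 of 7 hepatocyte and 1 of 6 bile duct markers were lower, 1 of 7 pericentral markers was higher (Cyp1a2) and 1 lower (Cyp2e1), and the bile duct markers summed to 48.2 to 63.6 CPM on the no-Trp diet. Their part in the result was not tested.

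BSO shows what inhibition of glutathione synthesis adds to lack of tryptophan. In Cse-/- mice none of the 9 members passed the edgeR test, beside 0.793% of all genes. At an unadjusted p under 0.05 there were 2 of 9, beside 13.0% of all genes, and DESeq2 called 1 of 9, beside 2.80% of the genes to which it gave an adjusted p. The 2 were Nr1h4 and Nr0b2, which went in opposite directions. Nr1h4 stood at 141, 143, 143 and 141 CPM with BSO, its tightest group, below all 3 mice without it (log2 fold change -0.36 ± 0.09, edgeR adjusted p = 0.0804, DESeq2 adjusted p = 0.00705). Nr0b2 (SHP), the repressor that FXR induces, stood at 57.8 to 62.2 CPM in 3 mice with BSO and 34.9 CPM in the other, and at 29.7, 36.1 and 22.2 CPM without it (log2 fold change 0.88 ± 0.40, adjusted p = 0.353). The 95% interval of Cyp7a1 ran from -0.86 to 1.37 and that of Cyp8b1 from -0.97 to 1.09. With BSO 1 of 14 clock genes was higher and no marker of the cell types passed. The part of the clock gene was not tested.

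Between the no-Cys and the no-Trp + BSO diets, again in Cse-/- mice, Slc27a5 was lower on the no-Cys diet and was the only member that passed, 1 of 9 (11.1%) beside 2.75% of all genes, 1.42% lower. It measured 969, 865, 918 and 964 CPM with no Trp + BSO, all above the 3 low no-Cys mice and on both sides of av08 (log2 fold change -0.63 ± 0.16, edgeR adjusted p = 0.0353). Leaving out av05, av06, av07, av09, av11 or av12 lost the call (-0.53 to -0.64, adjusted p 0.0758 to 0.133), as did a fit of only the 2 groups (0.0818). Without av08 the value was -0.92 (adjusted p = 5.03e-06), and Cyp7a1 (-1.85, 0.0358) and Cyp8b1 (-1.62, 0.0274) passed as well. With all mice Cyp7a1 stood at -1.28 ± 0.50 (adjusted p = 0.168, and 0.0281 without the filter on low counts), from 93.8, 67.9, 112 and 144 CPM with no Trp + BSO. Here 2 of 6 bile duct markers, 2 of 7 hepatocyte markers, 2 of 7 markers of pericentral hepatocytes and 1 of 14 clock genes were lower and none of these lists held a higher gene, and their part was not tested.

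The effect of genotype on the no-Trp diet serves as the comparison for that on the no-Cys diet. On the no-Trp diet none of the 9 members passed between the genotypes, beside 2.64% of all genes tested by edgeR. At an unadjusted p under 0.05 there was 1 of 9, beside 18.4% of all genes, and DESeq2 called none, beside 4.92% of its genes. The 1 member was Cyp8b1, at 126, 37.3 and 47.5 CPM in Cse+/- and 233, 367 and 128 CPM in Cse-/- mice, where the highest Cse+/- and the lowest Cse-/- mouse nearly met (log2 fold change 1.79 ± 0.55, edgeR adjusted p = 0.0822). It passed without av17 (2.51, adjusted p = 0.0321) and without the filter on low counts (0.00293). Slc27a5 had a log2 fold change of -0.08 with an interval of -0.45 to 0.30, and Baat one of -0.04 (-0.33 to 0.25). Between these groups 2 of 14 clock genes were higher in Cse-/- mice and no marker of the cell types passed. Their part in the result was not tested.

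Whether the effect of genotype differed between the diets was tested as an interaction, the log2 fold change on the no-Cys diet minus that on the no-Trp diet. Slc10a1 passed, 1 of 9 members (11.1%) beside 4.36% of all genes and 2.69% lower. It was lower in Cse-/- than Cse+/- livers by 0.54 on the no-Cys diet. On the no-Trp diet it stood at 0.29 ± 0.16 (edgeR adjusted p = 0.331), and at 0.09 without av15 (adjusted p = 0.871). The difference with all mice was -0.83 ± 0.21 (edgeR adjusted p = 0.0258). The call was lost without av02, av05, av07, av15, av19 or av20 (-0.63 to -0.82, adjusted p 0.0522 to 0.0701) and with only the 4 groups in the fit (0.0755). Cyp8b1 had the largest interaction, -2.47 ± 0.71 (adjusted p = 0.0542), which passed without av08 (-3.17), av16 (-2.77) or av17 (-3.19), without the filter on low counts (-2.46, adjusted p = 0.00114), thinned to the shallowest library (0.0492) and by DESeq2 (0.0401). Slc27a5 stood at -0.72 ± 0.24 (adjusted p = 0.0899), which did not pass, whereas it passed by DESeq2 (0.0381), without the filter on low counts (0.0495) and without av08 (-1.01, adjusted p = 7.99e-05). Baat (-0.38, adjusted p = 0.254) and Cyp7a1 (-1.41, 0.317) did not pass here or in any of the 22 alternatives. Clock genes moved here too, with 6 of 14 lower and none higher, together with 1 hepatocyte marker lower and 1 marker each of sinusoidal endothelium (Lyve1) and pericentral hepatocytes (Oat) higher, and their part was not tested.

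The last comparisons ask what the diets do in mice that can make cysteine. Without dietary cysteine, Abcb11 rose in Cse+/- livers relative to the control diet, the only member of 9 (11.1%) that passed beside 2.18% of all genes, 0.989% higher. It measured 206 and 204 CPM on the control diet and 380, 345, 337 and 364 CPM on the no-Cys diet, without overlap (log2 fold change 0.80 ± 0.20, edgeR adjusted p = 0.0397). The control diet was the lowest of the 6 groups, and each of the 18 mice on another diet measured 213 CPM or more. The call was lost without any 1 of the no-Cys mice (0.78 to 0.83, edgeR adjusted p 0.0553 to 0.0686). Without av21 or av22, which leaves only 1 control mouse, it was lost too, at 0.80 and 0.79. Slc10a1 measured 664 and 643 CPM on the control diet (log2 fold change 0.55 ± 0.17, edgeR adjusted p = 0.0928, DESeq2 adjusted p = 0.0326). For 5 of 9 members the ranges of these groups did not overlap, beside 25.6% of all genes.

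Between the no-Trp and control diets in Cse+/- mice none of the 9 members passed the edgeR test, beside 0.0474% of all genes, nor did any by DESeq2, beside 0.441%. At an unadjusted p under 0.05 there was 1 of 9, beside 9.29% of all genes. That member, Cyp8b1, measured 391 and 218 CPM on the control diet and no more than 126 CPM without tryptophan (log2 fold change -2.12 ± 0.59, edgeR adjusted p = 0.255, and 0.00613 without the filter on low counts). Between the no-Cys and no-Trp diets Slc10a1 was higher on the no-Cys diet, 1 of 9 (11.1%) beside 8.04% of all genes, 4.63% higher. It measured 599, 520 and 447 CPM on the no-Trp diet, all below the 4 no-Cys mice, and the log2 fold change of 0.87 ± 0.15 (edgeR adjusted p = 0.00202, and 1.33e-06 to 0.0117 over the alternatives) passed in all 15 alternative analyses. Cyp8b1 (1.61 ± 0.52, adjusted p = 0.0622), Baat (0.38 ± 0.13, 0.0740) and Nr0b2 (1.14 ± 0.41, 0.0931) did not pass with all mice. Cyp8b1 passed without av17 (2.34, adjusted p = 0.0257), without the filter on low counts (0.00363) and with only the 2 groups in the fit (0.0420). Nr0b2 passed without av01 (1.43, adjusted p = 0.0205) and without the filter (0.0138), and Baat by DESeq2 (0.0389).

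Clock genes differed between these Cse+/- groups as well. Relative to the control diet, the no-Cys livers had higher Nr1d1 (log2 fold change 2.34), Bhlhe41 (2.20) and Dbp (1.71) and lower Arntl (-2.83) and Cry1 (-1.11), and relative to the no-Trp livers 6 of 14 clock genes were higher and 2 lower. Cyp7a1 and Cyp8b1 are known to vary with the time of day and with feeding. Relative to the control diet 1 bile duct and 1 periportal marker (Sds) were lower as well, and relative to the no-Trp diet 2 of 4 markers of sinusoidal endothelium (Lyve1 and Pecam1). The part of these genes in the results was not tested.

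Upstream sequences are shown for the members that passed in at least 1 comparison and are in the RefSeq table of promoters, which holds 6 of the 9 members (not Cyp7a1, Baat or Slc27a5). Each run is the 250 bases before an annotated start (RefSeq, GRCm38.p6), written 5′ to 3′ on the strand of the gene, and capitals mark the motifs searched. The windows of Abcb11 and of the upstream Slc10a1 start end where the annotated gene begins, and those of the downstream Slc10a1 start and of Nr1h4 lie within the gene. Abcb11 is a known target of FXR, which binds DNA with RXR as an inverted repeat of hexamers with 1 base between them. The motifs, searched on both strands, were the hexamer AGGTCA, found in 14.0% of 32851 promoters of the table, the inverted repeat AGGTCANTGACCT with up to 2 mismatches (0.959%), the direct repeat AGGTCANAGGTCA with up to 2 mismatches (3.24%) and the extended hexamer TCAAGGTCA (0.387%). The hexamer lies within the other motifs.
Abcb11, chr2:69342617-69342866, minus strand: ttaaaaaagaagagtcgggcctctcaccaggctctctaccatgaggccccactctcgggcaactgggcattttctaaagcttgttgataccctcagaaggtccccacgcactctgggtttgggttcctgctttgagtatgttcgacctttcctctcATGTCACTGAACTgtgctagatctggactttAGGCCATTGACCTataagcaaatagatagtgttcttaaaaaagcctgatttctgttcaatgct
Slc10a1, upstream start, chr12:80968706-80968955, minus strand: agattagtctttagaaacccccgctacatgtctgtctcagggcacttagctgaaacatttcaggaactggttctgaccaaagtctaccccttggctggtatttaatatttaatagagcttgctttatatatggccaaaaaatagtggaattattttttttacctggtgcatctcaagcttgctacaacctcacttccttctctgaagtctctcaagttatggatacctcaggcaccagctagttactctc
Slc10a1, downstream start, chr12:80968080-80968329, minus strand: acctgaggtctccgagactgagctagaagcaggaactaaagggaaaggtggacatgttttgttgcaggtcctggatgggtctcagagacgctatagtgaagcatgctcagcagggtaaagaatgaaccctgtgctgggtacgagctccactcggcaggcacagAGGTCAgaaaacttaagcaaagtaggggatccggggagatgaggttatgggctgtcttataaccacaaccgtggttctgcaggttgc
Nr1h4, chr10:89506659-89506908, minus strand: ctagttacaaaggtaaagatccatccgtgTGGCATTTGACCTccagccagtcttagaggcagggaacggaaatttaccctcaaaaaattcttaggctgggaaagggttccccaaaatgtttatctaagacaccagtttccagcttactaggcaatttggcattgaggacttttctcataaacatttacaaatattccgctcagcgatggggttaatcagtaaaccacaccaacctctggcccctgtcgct

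Abcb11 held the inverted repeat at 63 to 51 bases before its start with 1 mismatch, AGGCCATTGACCT, and at 94 to 82 bases with 2 mismatches. Slc10a1 held a plain hexamer 87 to 82 bases before its downstream start and none of the motifs before the upstream one. Nr1h4 held the direct repeat with 2 mismatches at 221 to 209 bases before the start listed. Cyp8b1, Cyp27a1 and Nr0b2 held none of these letters within 250 bases of their starts. A match is a description of letters, and no binding was measured here.

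The rest of the pathway was read from lists of 60 genes by role, the 9 members included, of which 54 could be tested. In Cse-/- against Cse+/- livers on the no-Cys diet, 8 of the 45 tested genes that are no members were higher and 6 lower (edgeR adjusted p under 0.05). This 14 of 45 stands beside the 23.8% of all genes called in that comparison, and the lists are read as a description of their members. By role, the lists that hold the members counted 2 higher and 5 lower of 16 synthesis genes, 2 lower of 8 conjugation and taurine genes, 3 higher of 8 canalicular exporters, 2 lower of 5 uptake carriers, 2 higher of 2 tested sinusoidal efflux pumps, and 1 higher and 1 lower of 15 regulators. The median log2 fold change was -0.36 for synthesis, -0.18 for conjugation and taurine, 0.32 for canalicular export, -0.31 for uptake, 2.08 for sinusoidal efflux and 0.10 for regulators, against -0.01 over all genes.

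**Figure D3:**
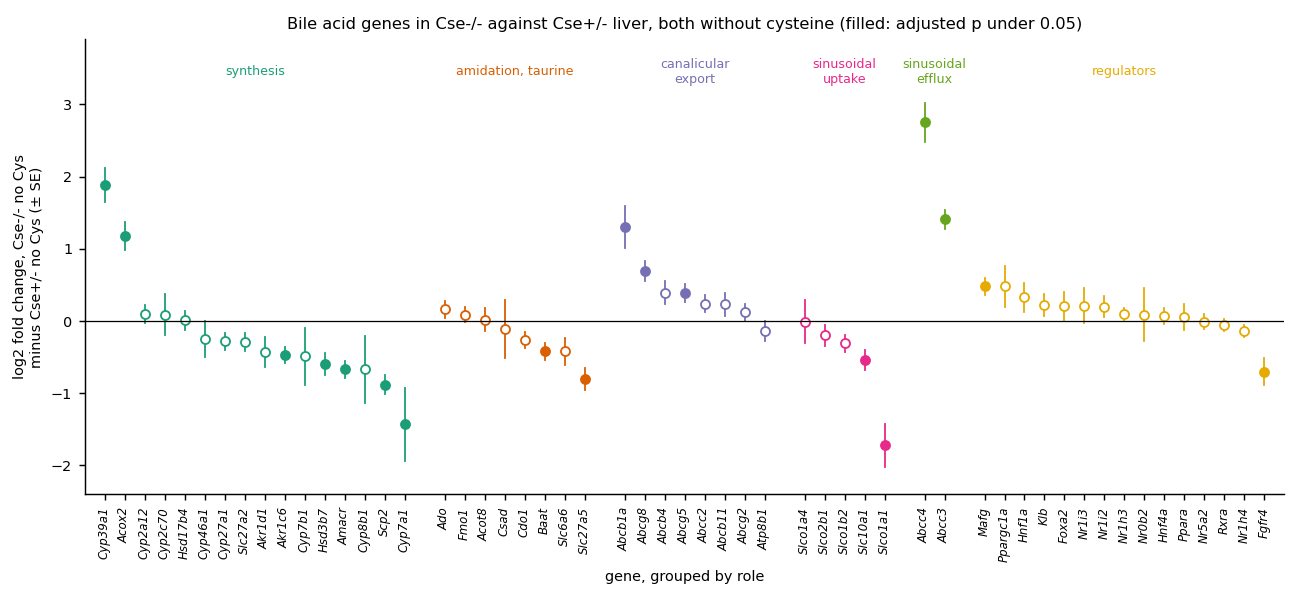
Log2 fold change ± SE of the 54 tested bile acid genes in Cse-/- against Cse+/- livers on the no-Cys diet, grouped by role and sorted within each role, filled where the edgeR adjusted p was under 0.05. The efflux pumps Abcc4 and Abcc3 lie at 2.75 and 1.41, and Slco1a1 and Cyp7a1 at -1.72 and -1.43.

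Among synthesis genes, Cyp39a1, a hydroxylase of oxysterols, rose from 75.5, 27.5, 32.0 and 43.4 CPM in Cse+/- to 167, 172, 208 and 110 CPM in Cse-/- no-Cys livers (log2 fold change 1.88 ± 0.23, edgeR adjusted p = 1.73e-05). Acox2, the peroxisomal oxidase that shortens the bile acid side chain, rose as well (1.18 ± 0.19, adjusted p = 0.000272). Of the other enzymes of side-chain shortening in the list, Scp2 (-0.88 ± 0.13), the sterol carrier and thiolase, and Amacr (-0.67 ± 0.12), the racemase of the side chain, fell, whereas Hsd17b4, the peroxisomal bifunctional enzyme, stood at 0.01 ± 0.13 (adjusted p = 0.97). Hsd3b7 (-0.60 ± 0.15) and Akr1c6 (-0.47 ± 0.12), which act on the steroid ring, were also lower, with overlapping ranges. The edgeR adjusted p of these 4 lower genes ran from 0.000132 to 0.00761. The Cse-/- no-Cys mean of Hsd3b7, 285 CPM, lay above the Cse+/- means on the control (235 CPM) and no-Trp (250 CPM) diets. The Cse+/- no-Cys mean was 431 CPM. Hsd3b7 and Scp2 are uncertain, since 80.1% and 27.8% of their 61-base stretches also occur in other genes. The sources used here do not say how such reads were counted.

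Conjugation draws on taurine, and the genes of taurine supply did not pass. Cdo1, which oxidises cysteine on the way to taurine, had a log2 fold change of -0.26 ± 0.11 (edgeR adjusted p = 0.104), Csad, the decarboxylase that follows, one of -0.11 ± 0.41 (0.876), and the taurine carrier Slc6a6 one of -0.42 ± 0.19, with adjusted p between these. The 2 genes of that list that were lower were thus the members Slc27a5 and Baat.

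Transport genes on the blood side of the hepatocyte went both ways, with both tested efflux pumps higher and 2 of 5 uptake carriers lower. Abcc3, an efflux pump of bile acids and glucuronides, measured 175, 237, 258 and 237 CPM in Cse+/- and 653, 579, 599 and 574 CPM in Cse-/- no-Cys livers (log2 fold change 1.41 ± 0.13, edgeR adjusted p = 8.70e-07). Abcc4, a second such pump, rose from 2.16, 2.05, 3.03 and 2.26 CPM to 13.9, 14.4, 21.5 and 14.0 CPM (2.75 ± 0.27, adjusted p = 1.78e-06). Slc51a and Slc51b, the heteromeric efflux carrier, were below the filter with at most 0.631 CPM in any mouse. The uptake carrier Slco1a1 fell from 230, 566, 445 and 434 CPM to 150, 158, 150 and 50.3 CPM (-1.72 ± 0.30, adjusted p = 0.000447), together with Slc10a1 above.

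On the canalicular side Abcb1a rose from a mean of 2.76 to 6.76 CPM (edgeR adjusted p = 0.00339), and Abcg8, which exports sterols as a pair with Abcg5, rose by a log2 fold change of 0.69 ± 0.14, whereas Abcb11 itself did not pass. Among regulators, Fgfr4 was lower, with overlapping ranges (-0.70 ± 0.19, edgeR adjusted p = 0.0103). It is the hepatic receptor for the intestinal hormone FGF15. Of Abcb1a, 19.7% of 61-base stretches are shared with other genes. Each of the 12 genes named for this comparison passed in all 16 alternatives at a threshold of 0.05.

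Between the no-Cys and no-Trp diets in Cse-/- mice 7 of the 45 other tested genes were higher and 2 lower, beside 10.4% of all genes called. This count of 9 was 3 without av14, 5 without av05 or av06 and 11 without av08. By role, 3 canalicular exporters, 2 efflux pumps and 2 synthesis genes were higher. Of those named by the rule, Abcc4 (1.85 ± 0.27), Acox2 (1.07 ± 0.21) and Cyp39a1 (1.05 ± 0.25) were higher, and Slco1a1 (-1.07 ± 0.31) and Akr1d1 (-0.73 ± 0.22), a reductase of the steroid ring, were lower (adjusted p 0.000416 to 0.0398). Single libraries decided 3 of these calls: that of Cyp39a1 was lost without av14 (adjusted p = 0.0696), that of Slco1a1 without av05, av07, av14 or av16 (0.0525 to 0.159) and that of Akr1d1 without av05, av06, av07, av14, av15 or av16 (0.0521 to 0.132). With only the 2 groups in the fit, Slco1a1 (0.118) and Akr1d1 (0.0849) did not pass.

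**Figure D4:**
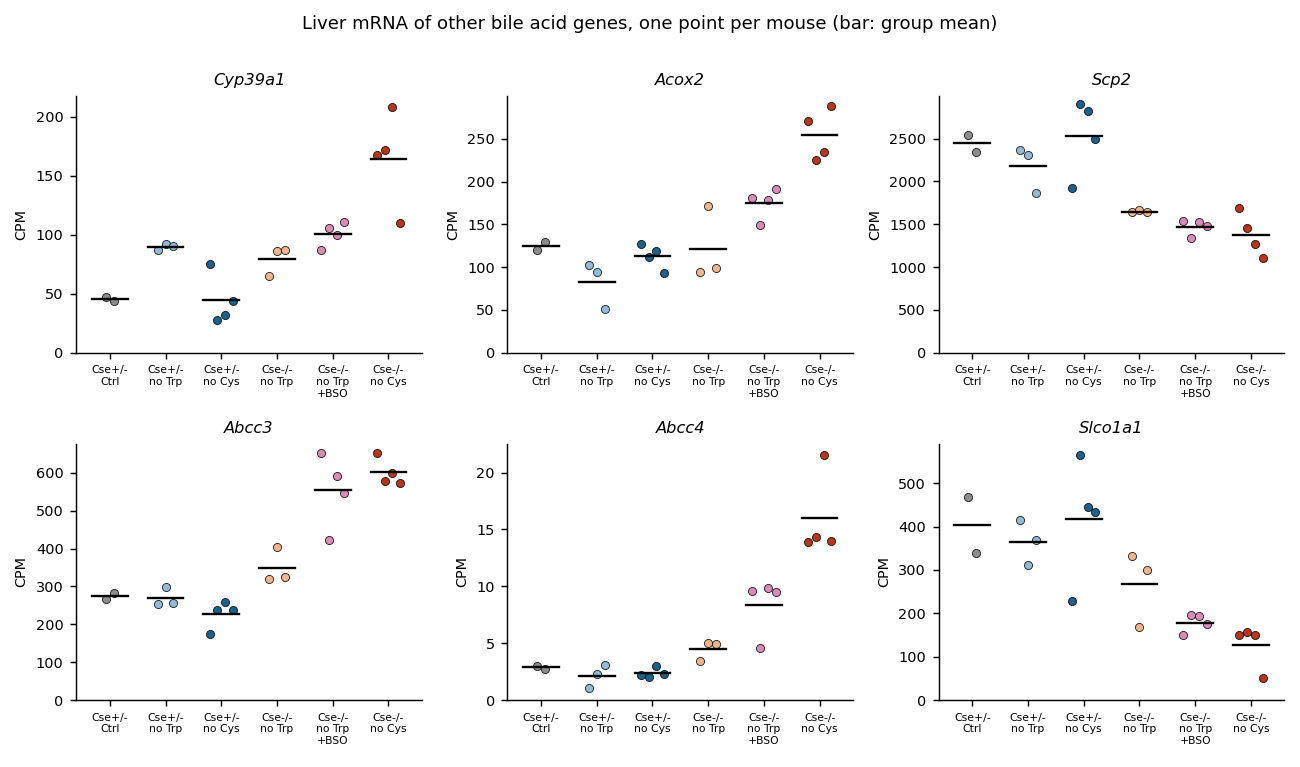
Level in CPM (linear axis from 0) of 6 other bile acid genes in each of the 20 livers, with a bar at the group mean. In Cse-/- no-Cys mice Abcc4 lies at 13.9 to 21.5 CPM, above the 9.83 CPM that no other mouse exceeds, and Acox2 lies at 226 to 288 CPM, above the 191 CPM of the highest other mouse.

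With BSO added to the no-Trp diet, Abcc3 rose from 319, 405 and 326 CPM to 653, 422, 592 and 547 CPM (log2 fold change 0.66 ± 0.14, edgeR adjusted p = 0.0318), a call that was lost without av09, av11, av12, av14 or av16 (0.56 to 0.66, adjusted p 0.0637 to 0.136). With only the 2 groups in the fit it did not pass (0.0845). It was the only one of the 45 other tested genes that passed there, beside 0.793% of all genes, and the count was 0 without any of those 5 libraries, 2 without av15 and 3 without av10. Abcc4 was higher on the no-Cys than on the no-Trp + BSO diet (0.92 ± 0.23, adjusted p = 0.0391, lost without any of av05, av06, av07, av09, av10, av11 and av12 at 0.0655 to 0.127) and was the only one of the 45 called there, beside 2.75% of all genes. Without av08 the count was 7, where the count over all genes rose from 406 to 1027. On the no-Trp diet Abcg8 was higher in Cse-/- than Cse+/- mice (0.62 ± 0.16, adjusted p = 0.0470) and was the only one of the 45 called, beside 2.64% of all genes. That call was lost without av15, av17, av19 or av20 (0.0596 to 0.287, with 0.32 without av15), thinned to the shallowest library (0.0660) and with only the 2 groups in the fit (0.266), and the count was 2 without av14 or av16.

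In Cse+/- mice Hsd3b7 was higher on the no-Cys diet than on the control diet (0.88 ± 0.19) and the no-Trp diet (0.79 ± 0.17). Relative to the no-Trp diet Abcc2 (0.43 ± 0.13), the canalicular exporter of conjugates, was also higher, and Cyp39a1 (-1.01 ± 0.24) and Cyp2c70 (-1.07 ± 0.30), which makes the muricholic acids of mice, were lower, with adjusted p from 0.0159 to 0.0373. Against the control diet the call of Hsd3b7 was lost without av02, av21 or av22 (0.0536 to 0.307). Against the no-Trp diet that of Abcc2 was lost without av01, av02, av03, av17 or av20 (0.0574 to 0.142), that of Cyp2c70 without av02, av03, av04, av17 or av19 (0.0727 to 0.149) and that of Cyp39a1 without av02 or av03 (0.0512 and 0.0526). With only the 2 groups in the fit Hsd3b7 against the control diet (0.0587), Abcc2 (0.0909) and Cyp39a1 (0.0707) did not pass, nor did Abcc2 without the filter on low counts (0.0585). Against the control diet Hsd3b7 was the only one of the 45 called, beside 2.18% of all genes, and the count ran from 0 to 3 (without av01) over single libraries left out. Against the no-Trp diet these were 4 of the 45, beside 8.04% of all genes, and 1 (without av02 or av03) to 6 (without av01) over single libraries left out.

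The interaction of genotype and diet passed for Cyp39a1 (2.07 ± 0.35, edgeR adjusted p = 0.00267), Abcc4 (1.74 ± 0.41, 0.0205), Abcc3 (1.03 ± 0.20, 0.00618) and Amacr (-0.65 ± 0.18, 0.0439) among the other genes of the lists. The call of Abcc4 was lost without av14 or av20 (0.0503 and 0.0605), and that of Amacr without any 1 of 11 of the 14 libraries, all but av01, av08 and av16, as well as thinned to the shallowest library (0.0522) and with only the 4 groups in the fit (0.0950). These 4 of 45 stand beside 4.36% of all genes, and the count was 2 without av14, 7 without av08 and 8 without av01. For Cyp39a1 the Cse+/- mice contributed, at 27.5 to 75.5 CPM on the no-Cys diet against 87.1 to 92.0 CPM on the no-Trp diet.

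The genes most like each member across the 20 libraries were taken by Pearson r of log2 CPM, as a description, since the libraries share groups and the choice runs over all genes. By this measure Slc27a5 had the closest companions: Tcea3 (r = 0.963), Otc (0.960), the urea cycle enzyme, and Pigr (0.957), with r of 0.849 to 0.891 after each group's mean was taken out. Their Spearman rho was lower, 0.696 to 0.770, with 3 Cse-/- no-Cys libraries far below the rest in Slc27a5, whereas Cyp27a1 with Epcam had a rho of 0.916 and Abcb11 with Scpep1 one of 0.914. Cyp27a1 was nearest to Epcam (0.924), Slc10a1 to Eno1 (0.887), Cyp8b1 and Nr0b2 to Ido2 and 2810006K23Rik (0.873 each), Abcb11 to Scpep1 and Nr1h4 to Manba (0.863 each), Cyp7a1 to Fam53a (0.816) and Baat to Enpp3 (0.798). Among the members themselves the highest r was 0.704, between Cyp7a1 and Cyp27a1, and Cyp7a1 and Cyp8b1 had an r of 0.298 (0.0465 within groups). The repressor Nr0b2 had an r of -0.396 with Cyp7a1 (-0.534 within groups), 0.300 with Cyp8b1 (0.15) and -0.559 with the receptor Nr1h4 (-0.13).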

How the data were processed

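Livers of 20 male mice were analysed by poly(A) RNA-seq. The authors aligned reads to GRCm38 with HISAT2 2.1.0 and counted them per gene with htseq-count (HTSeq 0.11.0), per the submitters' notes, and the deposited counts are whole numbers with no scaling. The sources used here do not name the annotation release, and the library kit does not mark strand. Columns were assigned to groups by mouse number from the study's list of mice, and 1 column not in the list was left out. The members and gene lists were chosen with earlier results of these data known.

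Genes were filtered with filterByExpr of edgeR 4.0.16 in R 4.3.3 (minimum count 10, minimum total 15), scaled with TMM factors and fitted by quasi-likelihood with 6 group means. Two-sided p-values were adjusted by the Benjamini-Hochberg method over 14759 genes for each of the 9 comparisons, with a threshold of 0.05. Each SE is the size of the log2 fold change over the root of F. CPM use TMM-scaled library sizes. The script was tested on simulated data. Depth ranged from 11785740 to 57986121 counts, and pairs of libraries of a group differed by more than counting noise (chi-square per gene 9.60 to 64.2 over 25 pairs). Alternatives were other scaling factors, filters and thresholds, thinning to the shallowest library, a fit of only the groups compared, DESeq2 1.42.0, and leaving out each library; for genes other than the members these were added after seeing the data. Genes of the lists are named where they passed with a mean of at least 1 CPM, up to 6 in each direction in the first comparison and up to 3 elsewhere. Gene positions and exon lengths come from an annotation of GRCm38, and promoters from RefSeq (GRCm38.p6).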

Additional observations from a re-analysis of the deposited data

Results flagged for a closer look

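In groups of 4 mice, the lowest or highest value was set against the rest for the 9 members and for 15 other named genes. Of 27 groups of members 4 held a value far from the others, and of 45 groups of other genes 5 did. The groups share the same mice and the other genes were named because they passed a test. These counts are therefore not set against a rate expected by chance. Slc27a5 in the Cse-/- no-Cys mouse av08 measured 930 CPM against 479 to 502 CPM. The same mouse stood apart for Slco1a1 (50.3 CPM against 150 to 158), Akr1d1 (227 CPM against 124 to 137) and Abcc2 (971 CPM against 836 to 850), so it was low for Slco1a1 and high for the others. In Cse+/- no-Cys mice Cyp8b1 measured 161 CPM in av03 against 225 to 237 CPM, and Baat 307 CPM in av01 against 242 to 248 CPM. With no Trp + BSO, Nr0b2 measured 34.9 CPM in av12 against 57.8 to 62.2 CPM, and Abcc4 4.56 CPM in av10 against 9.51 to 9.83 CPM. Abcc4 in the Cse-/- no-Cys mouse av07 measured 21.5 CPM against 13.9 to 14.4 CPM.

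The effect of genotype differed between the no-Cys and no-Trp diets, by the interaction in edgeR, for Slc10a1 of the 9 members (-0.83 on the log2 scale) and for 4 of the 45 other tested genes, Amacr (-0.65), Cyp39a1 (2.07), Abcc3 (1.03) and Abcc4 (1.74), beside 4.36% of all genes. The calls of Cyp39a1 and Abcc3 held in all 22 alternatives. Those of Slc10a1 and Abcc4 were lost without any 1 of 6 and any 1 of 2 libraries, and that of Amacr without any 1 of 11 of the 14, thinned to the shallowest library (adjusted p = 0.0522) and with only the 4 groups in the fit (0.0950). The count of 4 was 2 without av14 and 8 without av01.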

How the results depend on the processing

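In Cse-/- against Cse+/- livers on the no-Cys diet, Slc27a5 and Slc10a1 passed in all 16 alternatives, and Slc10a1 between the no-Cys and no-Trp diets in Cse+/- mice passed in all 15. Members called moved as follows, the cause being not tested. At an adjusted p under 0.01 the count was 2 for genotype on the no-Cys diet, and 0 for no Cys against no Trp and against no Trp + BSO in Cse-/- mice, no Cys against control, and the interaction. Without a filter it was 1 for no Cys against no Trp in Cse-/- mice, 2 against no Trp + BSO, 1 for genotype on the no-Trp diet, 1 for no Trp against control, 3 for no Cys against no Trp in Cse+/- mice and 3 for the interaction. Thinning gave 2 for the interaction. With only the groups compared it was 0 for no Cys against no Trp and against no Trp + BSO in Cse-/- mice and for the interaction. It was 2 for no Cys against no Trp in Cse+/- mice. For genotype on the no-Cys diet that setting lost the call of Cyp7a1 (edgeR adjusted p = 0.0732). DESeq2 gave 1 for BSO, 2 for no Cys against control, 2 for no Cys against no Trp in Cse+/- mice and 3 for the interaction. Over single libraries left out, counts ran from 2 to 5 for genotype on the no-Cys diet (2 without av01 or av05, 5 without av08), 1 to 3 and 0 to 3 for no Cys against no Trp and no Trp + BSO in Cse-/- mice (3 without av08 in both), 0 to 1 for genotype on the no-Trp diet (1 without av17), 0 for no Cys against control whichever was left out, 1 to 2 for no Cys against no Trp in Cse+/- mice and 0 to 3 for the interaction (3 without av08).

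Counts over all genes moved too, in the alternatives other than leaving out a library from 1860 (adjusted p under 0.01) to 3663 (DESeq2) against 3515 for genotype on the no-Cys diet, 467 to 1958 against 1535 for no Cys against no Trp and 40 to 876 against 406 for no Cys against no Trp + BSO in Cse-/- mice, 28 to 352 against 117 for BSO, 72 to 720 against 389 for genotype on the no-Trp diet, 62 to 613 against 322 for no Cys against control, 1 to 71 (without a filter) against 7 for no Trp against control, 329 to 1487 against 1186 for no Cys against no Trp in Cse+/- mice and 160 to 1055 against 643 for the interaction. In each the lowest was at an adjusted p under 0.01, and the highest by DESeq2 unless named. Over single libraries left out, in the same order, they ran from 2664 (av02) to 3500 (av08), 683 (av14) to 1855 (av08), 52 (av06) to 1027 (av08), 36 (av09) to 172 (av10), 109 (av15) to 421 (av14), 10 (av22) to 418 (av01), 2 (av17, av20 or av22) to 9 (av19), 597 (av02) to 1329 (av04) and 350 (av07) to 1150 (av08).

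No called member changed direction. Uncalled values near 0 changed sign: Baat between no Cys and no Trp in Cse-/- mice (-0.01 with upper-quartile factors and without a filter, -0.02 thinned, 0 with only the groups compared) and Nr1h4 for genotype on the no-Trp diet (-0.01 with upper-quartile factors and with a mean of at least 1 CPM, -0.04 thinned, 0 without a filter). Over single libraries left out, uncalled log2 fold changes ran across 0. For genotype on the no-Cys diet Nr0b2 ran from -0.19 to 0.36. For no Cys against control Nr0b2 ran from -0.18 to 1.16. For no Cys against no Trp in Cse+/- mice Cyp7a1 ran from -0.02 to 0.86, Cyp27a1 from -0.08 to 0.05 and Slc27a5 from -0.04 to 0.10. For the interaction Cyp27a1 ran from -0.23 to 0.03, Nr0b2 from -0.59 to 0.03 and Abcb11 from -0.23 to 0.20. For no Cys against no Trp in Cse-/- mice Cyp27a1 ran from -0.25 to 0.02, Baat from -0.08 to 0.06 and Slc10a1 from -0.08 to 0.23. Against no Trp + BSO Baat ran from -0.15 to 0.01 and Nr0b2 from -0.18 to 0.17. For BSO Cyp7a1 ran from -0.16 to 0.58, Cyp8b1 from -0.26 to 0.48, Cyp27a1 from -0.08 to 0.18, Baat from -0.02 to 0.14 and Abcb11 from -0.04 to 0.38. For genotype on the no-Trp diet Cyp7a1 ran from -0.36 to 0.45, Baat from -0.15 to 0.04 and Nr1h4 from -0.05 to 0.07. For no Trp against control Baat ran from -0.16 to 0.03 and Nr0b2 from -1.32 to 0.03.

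No paired analysis was possible because the columns of the count table carry no replicate numbers. Groups held 2 control mice and 3 to 4 mice otherwise, and every member had at least 190 counts in every library. The no-Cys and no-Trp diets were compared after 2 days only, and protein and bile acid levels were not measured in these files.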
